A study of Rattus norvegicus with 24 samples.

Results

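Kmo and Aadat encode enzymes that compete for kynurenine, the main breakdown product of tryptophan, and their transcripts were followed here in rat kidney RNA across 2 diets and 2 strains. The members were taken by gene symbol in the platform annotation. Each gene is listed at 2 probe IDs with the same sequence accession, of which 1 holds values. The 2 genes were thus described by 2 of the 1561 probes with a value, which carry 1313 distinct gene symbols. The genes were selected on their low ratios of strain 13 over SS on high salt, and that comparison is therefore given as a description with no test.

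The tissue is labelled kidney, and the title of the series places the work in the renal medulla. RNAs were compared after 2 weeks on high salt (HS) or low salt (LS), from strain 13 on HS, strain 13 on LS, strain SS on HS and strain SS on LS. SS is the salt-sensitive rat, and strain 13 is, from what is known of the study, the SS rat with chromosome 13 of another strain in place of its own. All groups thus share the SS background. Each of the 4 comparisons (HS over LS in 13, HS over LS in SS, 13 over SS on HS, 13 over SS on LS) had 3 replicates, each hybridised on a forward and a dye-swap 2-colour cDNA array, 24 arrays in all. The titles of 5 arrays placed in the SS diet comparison give no strain, and the remaining title begins as for strain 13 although it names SS for both of its dyes. Arrays held between 726 and 1402 values. Whether replicates came from separate animals is not stated, and a p-value here therefore reflects the spread among these RNA pairs alone, part of which may be technical. Values are the deposited log ratios, with a base that is not given, and no fold is drawn from them. Ratios are read as 13 over SS and HS over LS. That reading is only likely: 13 titles (12 strain arrays and 1 diet array) name the dye of each RNA, and by the dye labels of the channels these place 13 or HS in channel 1, but all signs could turn at once.

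In tryptophan breakdown, Tdo2 and related oxygenases open the indole ring on the way to kynurenine. Kmo, a flavin enzyme of the outer mitochondrial membrane that uses NADPH, hydroxylates kynurenine towards 3-hydroxykynurenine, quinolinic acid and NAD. Aadat, also called kynurenine aminotransferase II, instead transaminates kynurenine to kynurenic acid, and in lysine breakdown it transaminates 2-aminoadipate. Liver and kidney are rich in both enzymes, and in the kidney they are known mainly from the proximal tubule, while Kmo is also made by cells of the macrophage lineage.

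Kmo lies on chromosome 13, the substituted chromosome, and Aadat on chromosome 16. The promoter stretches are shown because the ratios of the genes had the same sign on most arrays. Both come from RefSeq, build GRCr8, and cover 250 bases before to 50 after the start that the table uses. That of Kmo is chr13:90089271-90089570 on the plus strand, and that of Aadat is chr16:34555131-34555430 on the minus strand. Capitals mark a match to CAAAGTNCA, the core of sites bound by HNF4, a transcription factor of liver and proximal tubule, searched on both strands.
Kmo promoter: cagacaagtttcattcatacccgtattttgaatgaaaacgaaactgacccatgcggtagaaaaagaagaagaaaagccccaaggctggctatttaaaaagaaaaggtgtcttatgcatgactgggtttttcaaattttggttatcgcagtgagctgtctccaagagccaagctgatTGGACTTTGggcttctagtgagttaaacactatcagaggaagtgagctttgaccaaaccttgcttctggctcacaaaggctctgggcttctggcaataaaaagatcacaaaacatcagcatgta
Aadat promoter: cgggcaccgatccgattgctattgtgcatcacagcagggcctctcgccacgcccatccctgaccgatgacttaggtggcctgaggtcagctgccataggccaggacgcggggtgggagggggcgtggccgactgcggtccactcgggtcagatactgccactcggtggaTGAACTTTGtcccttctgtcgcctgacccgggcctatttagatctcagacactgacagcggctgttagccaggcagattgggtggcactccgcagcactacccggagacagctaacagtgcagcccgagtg

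Each promoter held 1 such match, on the strand opposite to the gene. Its first base stood at position -74 from the start in Kmo and at position -81 in Aadat. Among all 33469 promoters of the table, which are 300 bases long, 1.24% held a match. A match is a description of letters, not a site, and the 3 motifs searched were chosen with these sequences in view. The second, the palindromic site of HNF1, another factor of the proximal tubule, matched 0 times in both genes and was present in 1 of the 33469 promoters. The promoters differed in composition, with 41.7% G and C in Kmo and 62.3% in Aadat. GCGTG, the core bound by AHR, the receptor that kynurenine and kynurenic acid can activate, matched 0 times in Kmo and 2 times in Aadat on either strand. It was present in 29.7% of all promoters and did not overlap the marked match.

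The effect of HS in strain 13 was not the comparison by which the members were selected. Strain 13 RNA on HS enters both it and that comparison, and SS RNA on HS also enters the diet comparison in SS. The titles name the same RNA in both for replicate 3 of SS only, and the strain 13 diet titles name none. Neither diet comparison is therefore taken as independent of the selection. In strain 13, both transcripts had ratios below 0 in every replicate. Kmo had replicate means of -0.51, -0.63 and -0.24 in replicates 1 to 3, with a mean of -0.46 ± 0.20 (SD, n = 3). Its replicate 1 rests on the forward array alone. In replicate 3 its forward array had -0.52 and its dye-swap array 0.04, which was the only one of its 5 arrays above 0. Aadat had -0.395, -0.47 and -0.485, which is a mean of -0.45 ± 0.05 (SD, n = 3), the closest agreement between replicates that Aadat showed in any of the 4 comparisons. All 6 arrays of Aadat were below 0, from -0.78 to -0.19. A mean below 0 in all 3 replicates was found for 15.8% of the 1183 probes with 3 replicates.

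Neither gene passed the test in strain 13. In limma's moderated test, Kmo had an adjusted p = 0.48 and Aadat an adjusted p = 0.472 over 1287 probes. The called share of that comparison was 0 percent. The 95% intervals of the log ratio ran from -0.87 to -0.05 for Kmo and from -0.83 to -0.07 for Aadat before any adjustment for the number of probes. Without adjustment 119 probes had p below 0.05, both genes among them.

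In SS the same diet comparison split by replicate. Kmo had 0.23 in replicate 1, on the forward array alone, against -0.635 and -0.615 in replicates 2 and 3. Aadat had 0.13 in replicate 1, with both arrays above 0 at 0.18 and 0.08, against -0.43 and -0.285 in the others. Replicate 1 was thus the only replicate of the 12 in the series in which either gene had a mean above 0, and it was so for both. Of the 1006 probes with all 12 replicates, 4.77% had at least 11 means below 0. For the members such a count includes the comparison by which they were selected and others that may share its RNAs, so it is a description only.

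The SS means were -0.34 ± 0.49 for Kmo and -0.195 ± 0.29 for Aadat (SD, n = 3), within the spread between replicates. Neither passed, with limma adjusted p = 0.342 for Kmo and 0.556 for Aadat over 1310 probes, of which 2.82% were called, 0.992% as lower and 1.83% as higher. Without replicate 1 the means were -0.625 for Kmo and -0.357 for Aadat, and the limma adjusted p was 0.0746 for Kmo and 0.342 for Aadat. In an alternative added after seeing the data, which kept only replicates with both dye orientations, Kmo had -0.625 with a limma adjusted p = 0.0219. Over the 13 alternatives for Kmo in SS the limma adjusted p ran from 0.0219 to 0.827. That setting also leaves out replicates of the other comparisons, and leaving out replicate 1 of the SS diet comparison alone gave no call.

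**Figure D1:**
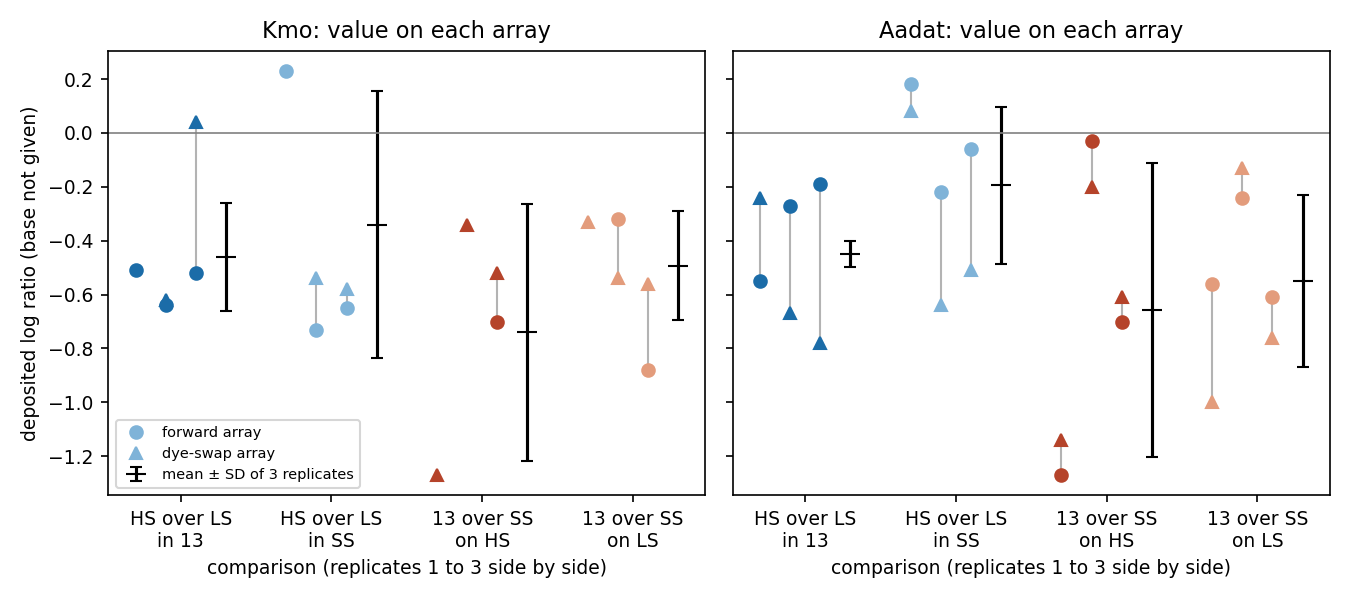
Deposited log ratios of Kmo (left panel) and Aadat (right panel) on each array, with the 4 comparisons along the horizontal axis and the 3 replicates of each side by side. Circles are forward arrays, triangles dye-swap arrays, grey lines join the 2 arrays of a replicate, and the black bar is the mean ± SD of 3 replicates. Replicate 1 of the SS diet comparison lies above 0 for both genes, and replicate 1 of the strain comparison on HS is the lowest of the 12 for both.

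The salt response of strain 13 was set against that of SS with the diet arrays alone. The difference, 13 minus SS, was -0.12 for Kmo (95% interval -0.695 to 0.455) and -0.255 for Aadat (-0.80 to 0.29). The limma adjusted p was 0.968 for Kmo and 0.825 for Aadat over 1249 probes, of which 0 were called and 105 had an unadjusted p below 0.05. With the replicate number as a block, the limma adjusted p was 0.96 for Kmo and 0.821 for Aadat. By replicate, Kmo had differences of -0.74, 0.005 and 0.375, and Aadat -0.525, -0.04 and -0.20. Replicate 1 carried most of the negative sum for both, since SS was above 0 there. For Kmo the difference was 0.165 without replicate 1 of the SS diet comparison, so its sign is not fixed by these arrays.

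The strain arrays give the same difference by another route, as 13 over SS on HS minus 13 over SS on LS. It is a description, because it holds the comparison by which the genes were chosen, and replicates are matched by number only. Kmo had -0.94, 0.09 and 0.11 in replicates 1 to 3, and Aadat -0.425, 0.07 and 0.03. Again replicate 1 was far below 0 and the other two lay near 0. The means were -0.25 for Kmo and -0.11 for Aadat. Without replicate 1 of the HS strain comparison they were 0.018 and 0.165.

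The strain comparison on HS, which chose the members, had the lowest means. Kmo had -1.27, -0.34 and -0.61 in replicates 1 to 3, with a mean of -0.74 ± 0.48 (SD, n = 3). Replicates 1 and 2 of Kmo rest on the dye-swap array alone, so a dye effect does not cancel in them. Aadat had -1.205, -0.115 and -0.655, with a mean of -0.66 ± 0.55, and all 6 of its arrays were below 0, from -1.27 to -0.03. All 3 replicates of both genes lay below 0, as for 20% of the 1252 probes with 3 replicates, and 6% of 1350 probes were called in this comparison, 2.37% as lower and 3.63% as higher. Replicate 1 set the size for both genes. Without it, Kmo had a mean of -0.475 and Aadat of -0.385.

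On LS, where neither RNA was part of the comparison by which the members were selected, both genes again had ratios below 0 in every replicate. Kmo had -0.33, -0.43 and -0.72, with a mean of -0.49 ± 0.20 (SD, n = 3), and its 5 arrays ran from -0.88 to -0.32. Its replicate 1 rests on the dye-swap array alone. Aadat had -0.78, -0.185 and -0.685, with a mean of -0.55 ± 0.32 (SD, n = 3) and 6 of 6 arrays below 0. Of the 1070 probes with 3 replicates on LS, 17.6% had all 3 below 0.

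Neither gene passed on LS either. The limma adjusted p was 0.152 for Kmo and 0.116 for Aadat over 1229 probes, of which 0 percent were called and 268 had an unadjusted p below 0.05. The 95% intervals of the log ratio were -0.90 to -0.09 for Kmo and -0.93 to -0.17 for Aadat. Over the 13 alternatives tried for each gene, the adjusted p ran from 0.0511 to 0.387 for Kmo and from 0.0591 to 0.473 for Aadat. The HS and LS values thus overlapped by replicate for both genes. On HS, Kmo had -1.27 to -0.34, against -0.72 to -0.33 on LS. On HS, Aadat had -1.205 to -0.115, against -0.78 to -0.185 on LS.

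Text in the array titles that may mark a batch was shared by replicates 1 and 2 of the strain arrays on HS, and by replicate 3 of the strain arrays on both diets. A further such text was shared, among the strain arrays on LS, by both arrays of replicate 2 and the dye-swap array of replicate 1. In replicate 3, Kmo had -0.61 on HS and -0.72 on LS, and Aadat -0.655 on HS and -0.685 on LS. The comparisons also share RNAs. By the channel names, SS RNAs of replicate 3 were hybridised in the SS diet comparison and in the strain comparisons, so the ratios of different comparisons are not independent.

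Dye orientation was compared for each gene where both arrays held a value. For Aadat the forward minus dye-swap difference averaged 0.17 ± 0.29 over 12 replicates (SD), and forward and dye-swap arrays had the same sign in all 12. For Kmo it averaged -0.16 ± 0.245 over 7 replicates, with the same sign in 6. Kmo lacked a value on 5 of the 24 arrays, and Aadat on 0.

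Kmo and Aadat had the same sign on 18 of the 19 arrays with a value for both. Most values lay below 0, 17 of 19 for Kmo and 22 of 24 for Aadat, so a shared sign says little about likeness. Over the 12 replicate means, the median absolute difference between the genes was 0.18 and the largest 0.45, and 6 differed by under 0.2. Single arrays could differ more. On the dye-swap array of replicate 3 in strain 13 on diet, Kmo had 0.04 and Aadat -0.78. Pearson's r was 0.79 and Spearman's rho 0.48. Without the 2 replicates farthest from the Kmo median, replicate 1 of the strain comparison on HS and replicate 1 of the SS diet comparison, r was 0.20 over 10 replicates. The likeness of the members to each other therefore rests on those 2 replicates. These 12 points share RNAs and dyes and are given as a description.

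The rest of the kynurenine pathway was thinly measured. Of the 25 genes of the kynurenine list, 5 had a value, Tdo2, Kmo, Aadat, Maob and Aldh2. In strain 13 on diet, in SS on diet and on LS 0 of the 5 passed in either direction. On HS 0 of the other 3 genes passed. The median of the list was -0.195 for HS over LS in 13, -0.10 in SS, -0.24 for 13 over SS on HS and -0.08 on LS. Over all probes tested the medians in the same order were 0.012, -0.007, 0.018 and 0.025. The list medians count Kmo and Aadat, selected for low ratios on HS, so they do not describe the rest of the pathway alone.

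Tdo2, tryptophan dioxygenase at the head of the pathway, lay on the other side of 0 from the members. It had 0.16 ± 0.10 for HS over LS in 13, 0.16 ± 0.04 in SS, 0.12 ± 0.11 for 13 over SS on HS and 0.13 ± 0.06 on LS (SD, n = 3). Its limma adjusted p ranged from 0.22 to 0.48. Maob, a monoamine oxidase, had -0.24 ± 0.23 on HS and between -0.08 and -0.06 in the other comparisons. Aldh2, the mitochondrial aldehyde dehydrogenase, had -0.195 ± 0.07 in strain 13 on diet and -0.175 ± 0.155 on HS. Neither passed in any comparison.

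**Figure D2:**
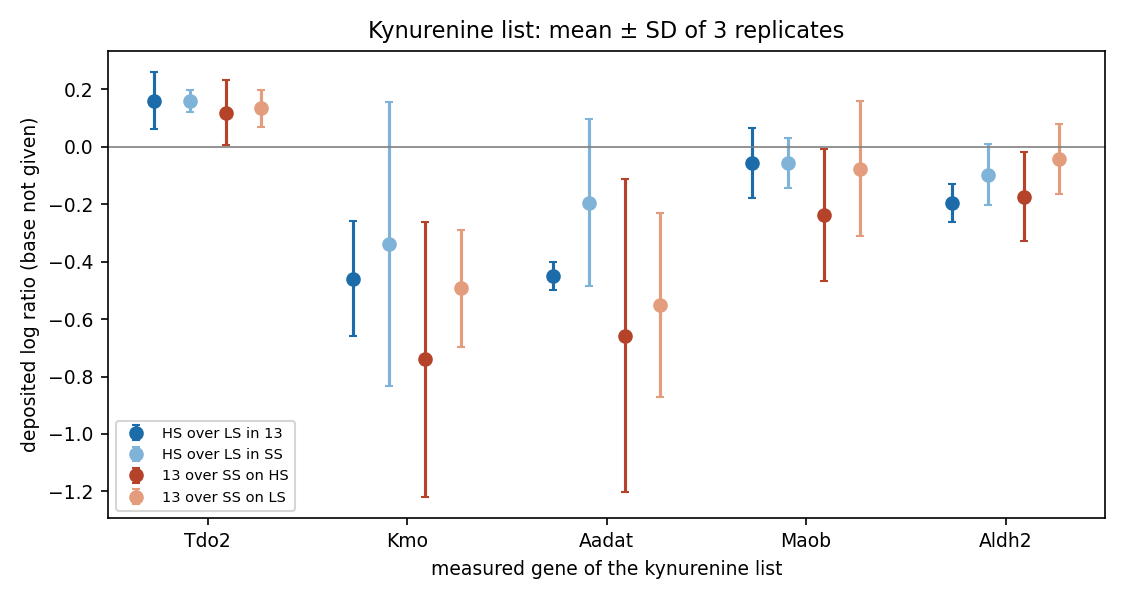
Mean deposited log ratio ± SD of 3 replicates (vertical axis) for the 5 measured genes of the kynurenine list (horizontal axis), with 1 colour for each of the 4 comparisons. Kmo and Aadat lie below 0 in all 4 comparisons, with SD up to 0.55, and Tdo2 lies between 0.12 and 0.16.

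Of the receptors and targets of kynurenine metabolites, 1 of 11 listed genes held values. Ahr had -0.585 ± 0.11 for HS over LS in 13 and -0.255 in SS (n = 2 each), and 0.04 ± 0.795 for 13 over SS on HS (n = 3), with limma adjusted p between 0.615 and 0.951. On LS it had a value in 1 replicate only and was not tested.

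Aadat also acts in lysine breakdown, where 3 of 13 listed genes were measured. Acat1, acetoacetyl-CoA thiolase, had 0.19 ± 0.09 on HS, and Echs1, a hydratase of short-chain acyl-CoA, 0.08 ± 0.145 (SD, n = 3), where Aadat had -0.66. Neither passed in any comparison. In SS on diet, Acat1 had -0.19 ± 0.10 and Echs1 -0.27 ± 0.18, with limma adjusted p of 0.162 and 0.0829.

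The other transaminases did not form a single pattern. Of all probes tested for 13 over SS on HS, 3.63% rose and 2.37% fell. Of 6 transaminases measured, 2 rose there and 0 fell. These were Got1, the cytosolic aspartate aminotransferase, with 0.385 ± 0.09 (limma adjusted p = 0.0177), and Bcat2, the mitochondrial branched-chain enzyme, with 0.52 ± 0.09 (limma adjusted p = 0.00261). Both fell on HS in SS, Got1 by 0.33 and Bcat2 by 0.31 (limma adjusted p of 0.0286 and 0.0165), where 0.992% of all probes tested fell. Without replicate 1 on HS, and without replicate 2 or replicate 3 in SS, 0 probes of the array were called, and these calls were lost. Aadat had the opposite sign on HS and the same sign in SS. Agxt2, a mitochondrial aminotransferase of the proximal tubule, was the lowest of the 6 on both diets, with -0.50 ± 0.50 on HS and -0.44 ± 0.29 on LS. Its limma adjusted p was 0.108 and 0.156.

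Kmo was compared with other enzymes that use FAD or pass electrons from NADPH, of which 5 of 12 had values with Kmo included. Fmo1, a flavin monooxygenase also on chromosome 13, had -0.32 ± 0.33 for HS over LS in 13, -0.31 ± 0.51 in SS, -0.25 ± 0.26 for 13 over SS on HS and -0.125 ± 0.27 on LS. Por, the reductase of microsomal cytochromes P450, had 0.155 ± 0.11 on HS, and Sqle, squalene epoxidase, -0.21 ± 0.28. Of the 4 other than Kmo, 0 passed in any of the 4 comparisons.

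In each of the 4 comparisons most tested markers of a proximal tubule list lay below 0, as did the means of both members. In bulk RNA, fewer cells of a type and less RNA per cell cannot be told apart. Of 36 markers 18 held a value. Of all probes tested for 13 over SS on HS, 2.37% fell and 3.63% rose. Of the markers, 15 were tested there, 14 lay below 0, 3 fell and 1 rose, with a median of -0.42. Those that fell were Gatm, which makes the creatine precursor, at -1.025, Cyp2e1, a cytochrome P450, at -0.67, and Slc2a2, a glucose transporter, at -0.37. Fabp3, a fatty acid binding protein, rose by 0.395. These 4 calls were lost without replicate 1 on HS. On LS 16 of 17 lay below 0 (median -0.295), for HS over LS in 13 15 of 17 (median -0.31), and in SS 14 of 17 (median -0.12), with 0 passing in each of these.

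The mean of the 14 marker probes with a value in every replicate followed Aadat by replicate, and Kmo more loosely by rank. In replicate 1 of the SS diet comparison it was 0.23, where Kmo had 0.23 and Aadat 0.13. In replicate 1 of the strain comparison on HS it was -0.68, the lowest of the 12, where Kmo had -1.27 and Aadat -1.205. Those 2 replicates are the highest and the lowest of the 12 for Kmo, and the correlation without them was not computed. Over the 12 replicates the marker mean had a Pearson r of 0.88 and a Spearman rho of 0.57 with Kmo, and of 0.94 and 0.97 with Aadat. Its part in the results for Kmo and Aadat was not tested. On average over replicates, both members lay further below 0 than the marker mean in each comparison. The difference from it averaged -0.36 ± 0.20 for Kmo and -0.28 ± 0.235 for Aadat on HS, and -0.20 ± 0.17 and -0.26 ± 0.19 on LS (SD, n = 3). For HS over LS it averaged -0.21 ± 0.25 for Kmo and -0.20 ± 0.04 for Aadat in strain 13, and -0.23 ± 0.20 and -0.08 ± 0.07 in SS. The members were selected for low ratios on HS, whose RNAs the diet comparisons may share, so these differences are a description. Gatm, 1 marker of the list, lay lower than both members on HS (-1.025), on LS (-0.72) and in strain 13 on diet (-0.56). In SS on diet Gatm had -0.24, between Kmo and Aadat.

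**Figure D3:**
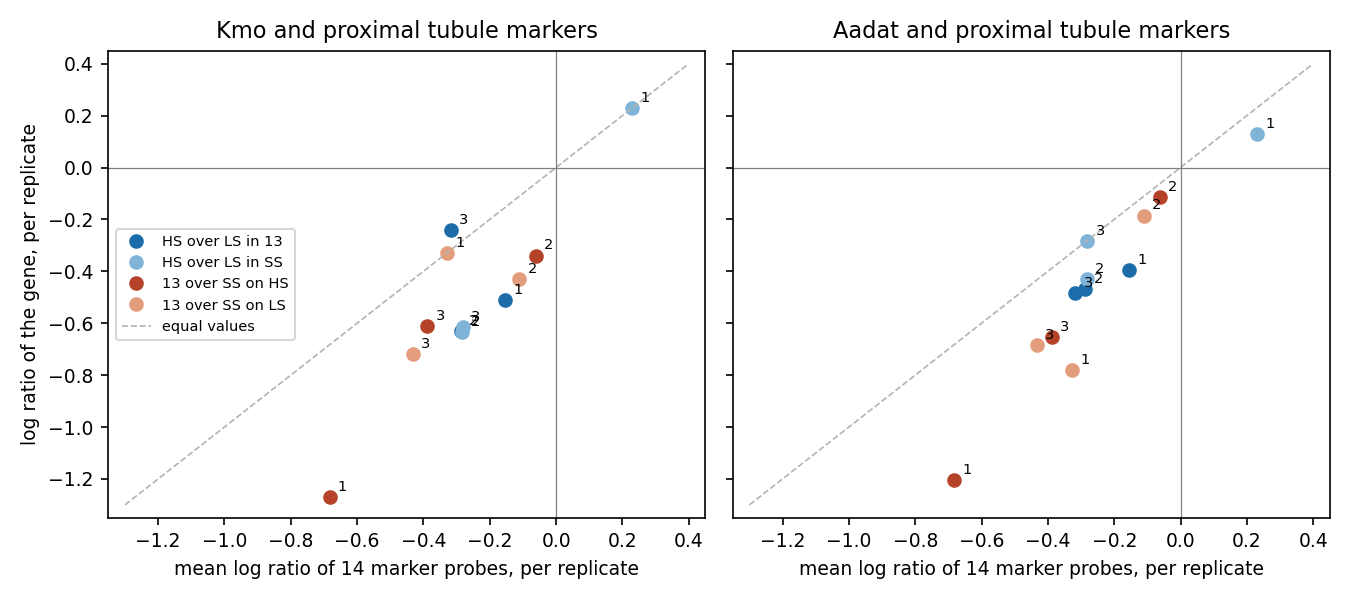
Log ratio of Kmo (left panel) and Aadat (right panel) in each replicate (vertical axis) against the mean log ratio of 14 proximal tubule marker probes in the same replicate (horizontal axis). Colours give the comparison, numbers the replicate, and the dashed line equal values. Most points lie below the line, replicate 1 of the strain comparison on HS at the lower left and replicate 1 of the SS diet comparison at the upper right.

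Markers of other tubule segments had the opposite sign to the members for 13 over SS on HS, and the same sign for HS over LS in SS. The 3 collecting duct markers with values, the water channel Aqp3, the sodium pump regulator Fxyd4 and the sodium channel subunit Scnn1a, all rose for 13 over SS on HS, with a median of 0.38, and had a median of 0.23 on LS with 0 passing. Of all probes tested for 13 over SS on HS, 3.63% rose. Of the 3 thick limb and distal markers, Umod, Slc12a1 and Egf, 1 rose on HS, the growth factor gene Egf, with 0.29 (limma adjusted p = 0.0434). Their mean ran from 0.17 to 0.24 over the replicates on HS and from -0.06 to 0.09 on LS. For HS over LS in SS, all 3 markers of each list lay below 0, with a median of -0.12 for collecting duct and -0.25 for thick limb and distal tubule, and 0 passed. In strain 13 the thick limb and distal markers also lay below 0 (3 of 3), and 2 of 3 collecting duct markers lay above it. The calls on HS for both lists were lost without replicate 1.

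Markers of leukocytes were examined because Kmo is also a gene of macrophages. Of 20 listed, 6 held a value and 5 were tested on HS. Of these 1 fell, Lyz2, the lysozyme of myeloid cells, with -1.51 ± 0.825 (limma adjusted p = 0.0321), a call lost without replicate 1. Over all probes tested on HS, 2.37% fell. The other tested markers on HS lay between -0.19 and 0.00, the highest being Spn, sialophorin, and Cd53, a leukocyte membrane protein and the only listed one with a value in all 12 replicates, had a Pearson r of 0.10 with Kmo. On LS 3 were tested and 0 passed, and Lyz2 had -0.52 ± 0.46. For HS over LS, where the Kmo means lay below 0, 3 of 3 tested markers lay above 0 in strain 13 (median 0.30). Lyz2 with -0.69 and Fcgr2b with -0.30 lay below 0 there, with a value in 1 replicate each, and were not tested. In SS 4 of 5 tested markers lay above 0 (median 0.22), and Lyz2 had -0.125, with 0 passing in either strain. The part of these cells in the Kmo values was not tested.

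The remaining marker lists were smaller. Kdr, a VEGF receptor and the only endothelial marker with values, rose for 13 over SS on HS with 0.315 (limma adjusted p = 0.0241), a call lost without replicate 1. It had a Pearson r of -0.75 with Kmo and -0.58 with Aadat over the 12 replicates. Of 6 smooth muscle and fibroblast markers, 3 of 5 tested rose on HS in SS (median 0.70), calls lost without replicate 2 or replicate 3. Over all probes tested in SS, 1.83% rose. For 13 over SS on HS 0 of 6 passed (median -0.31), from -0.56 for Col1a1, a collagen gene, to -0.01 for Acta2, smooth muscle actin. The mean of the list had an r of 0.107 with Kmo and 0.196 with Aadat. Of the 3 hepatocyte or blood markers 0 passed in any comparison, and on HS they ran from 0.06 for Hbb to 0.21 for Hba-a1, both globin genes. The part of these cells in the values of Kmo and Aadat was not tested.

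By likeness over the 12 replicates, Aadat stood among metabolic genes of the proximal tubule. The 5 genes of 862 compared that had the highest Pearson correlation with it were Acsm2, a medium-chain acyl-CoA synthetase (0.99), Agxt2 (0.98), Hao2, a peroxisomal hydroxyacid oxidase (0.93), Cyp2d4, a cytochrome P450 (0.91), and Pdzk1, a scaffold of the brush border (0.91). Agxt2 and Hao2 are on the proximal tubule list. The median over all genes was -0.055. Acsm2 had means of -0.49 for HS over LS in 13, -0.27 in SS, -0.67 for 13 over SS on HS and -0.55 on LS, where Aadat had -0.45, -0.195, -0.66 and -0.55. Taken as deviations from the mean of each comparison, the correlation of Acsm2 with Aadat was also 0.99. The lowest were Adora2a, an adenosine receptor (-0.89), and C1s, a complement protease (-0.79). Kmo ranked 27th for Aadat.

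Kmo had another set of closest genes by Pearson correlation. They were Pzp, a protease inhibitor of the macroglobulin family (0.97), Pc, pyruvate carboxylase (0.91), Cyp4f1, a fatty acid hydroxylase (0.90), Gss, glutathione synthetase (0.90), and Slc27a2, which activates and imports long fatty acids (0.88). The median over all genes was -0.065. Spearman's rho of the 5 with Kmo ran from 0.699 for Gss to 0.86 for Slc27a2. The replicates farthest from the Kmo median, replicate 1 on HS and replicate 1 of the SS diet comparison, rest on 1 array each. Without them the correlations of these genes and their order were not computed, so this set may rest on those replicates. Slc27a2 came closest to the size of the Kmo ratios, with -0.395 for HS over LS in 13, -0.375 in SS, -0.55 for 13 over SS on HS and -0.51 on LS, while Gss stayed between -0.17 and -0.02. The lowest were Akr1b1, aldose reductase of the osmolyte pathway (-0.92), and Hk1, a hexokinase (-0.84). Aadat ranked 20th for Kmo by Pearson's r over all 12 replicates. All these correlations are over ratios that share RNAs and are given with no p.

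**Figure D4:**
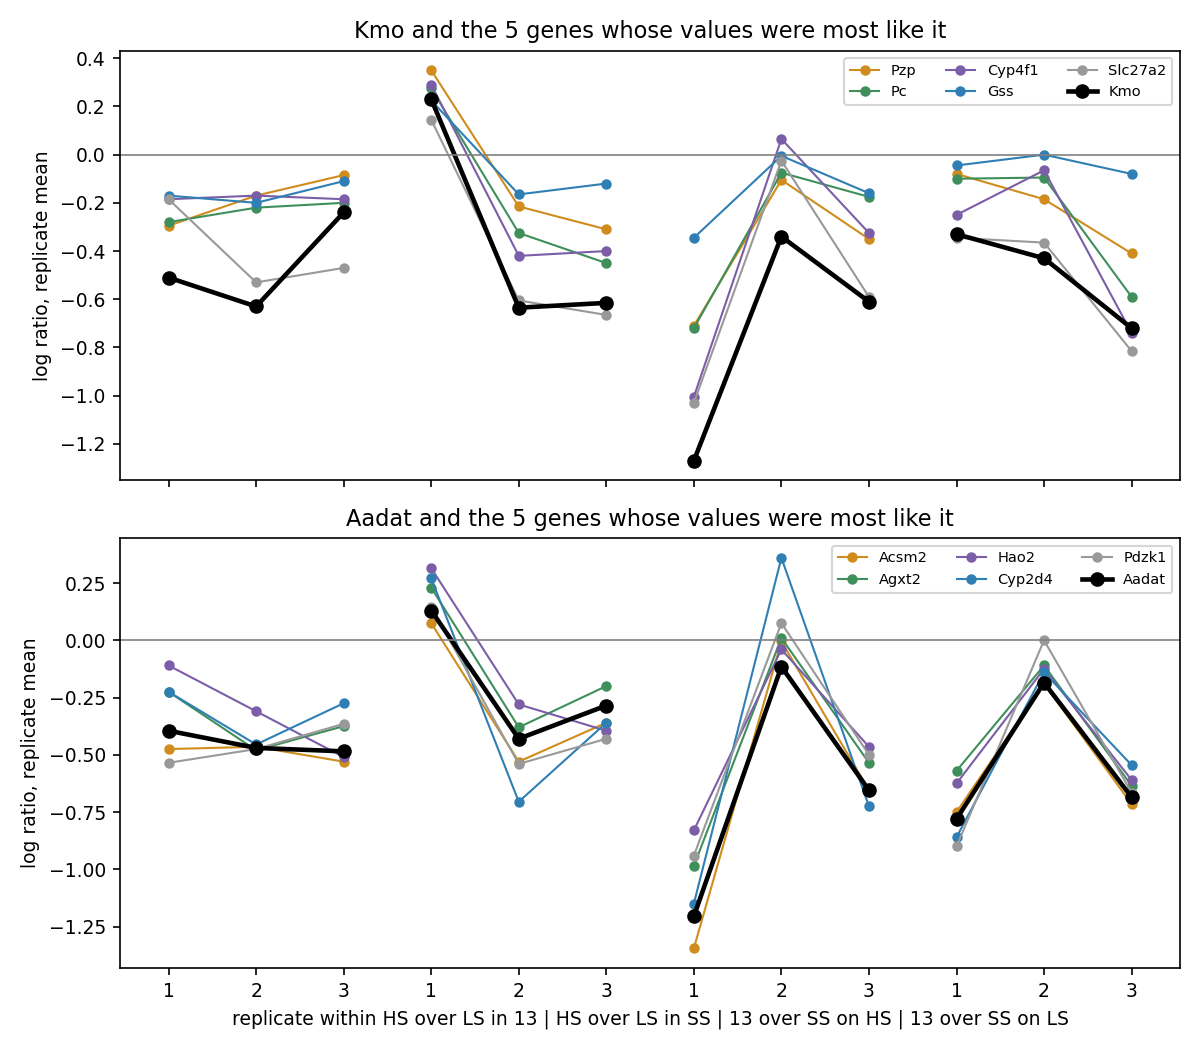
Replicate means of the deposited log ratio (vertical axis) for Kmo (upper panel, black) and Aadat (lower panel, black) with the 5 genes most like each by Pearson correlation. The horizontal axis gives replicates 1 to 3 within each of the 4 comparisons, and the lines only join the points of a gene. In both panels replicate 1 of the SS diet comparison is above 0, and replicate 1 of the strain comparison on HS is the lowest point of the black line.

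Of the 10 closest genes, 9 had a promoter in the RefSeq table and 2 of these held the CAAAGTNCA match, which is a description of few genes, as did 3 of the 18 measured proximal tubule markers.

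Kmo was also viewed among its neighbours on chromosome 13. Of the probes tested on that chromosome other than Kmo, 7 of 31 were called on HS (22.6%, against 6% of all probes tested). These calls were lost without replicate 1 on HS. On LS 0 of 28 were called, as were 0 of all 1229 probes tested there. The nearest measured genes on one side were Apcs, serum amyloid P, with 53 annotated genes in between, Crp and Cd48, and on the other Cep170, with 15 in between, Cdc42bpa and Psen2. Apcs fell for 13 over SS on HS, with -0.46 (limma adjusted p = 0.024), and had 0.04 on LS. Cep170, a centrosomal protein gene and the closest, had 0.18 on HS and 0.28 on LS, above 0 where Kmo was below, with limma adjusted p of 0.488 and 0.269. Psen2, a presenilin, had -0.38 on HS (limma adjusted p = 0.257). Crp, the C-reactive protein gene, has 2 probes with values, of which the 1 tested had 0.13 on HS, Cd48, a leukocyte membrane protein gene, had 0.08 and Cdc42bpa, a kinase gene, 0.15. Apart from Apcs on HS, a call lost without replicate 1, 0 of these neighbours passed in any comparison.

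The neighbours of Aadat on chromosome 16 had ratios on both sides of 0. Msmo1, a sterol oxidase and the nearest on one side with 41 genes in between, had -0.29 for HS over LS in 13, -0.325 for 13 over SS on HS and -0.12 on LS, below 0 like Aadat, and did not pass. Acsl1, which activates long-chain fatty acids and was the nearest on the other side with 153 genes in between, rose by 0.505 on HS (limma adjusted p = 0.00636), where Aadat had -0.66. On HS in SS, Acsl1 fell by 0.39 and Isyna1, which makes inositol, fell by 0.455 (limma adjusted p of 0.0105 and 0.0148). Lpl, lipoprotein lipase, had between -0.08 and 0.04 in all 4 comparisons. Pdlim3, a gene of a protein that binds actin filaments at the Z line, had -0.475 for HS over LS in SS, 0.165 for 13 over SS on HS and -0.01 on LS, and did not pass. Sorbs2, an adaptor of the cytoskeleton, had -0.445 for HS over LS in SS, -0.14 for 13 over SS on HS and -0.23 on LS, below 0 like Aadat, and 0.105 for HS over LS in 13, and did not pass. The call of Acsl1 on HS was lost without replicate 1, and those of Acsl1 and Isyna1 in SS without replicate 2 or replicate 3.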

How the data were processed

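The deposited table, per the labels from 2-colour arrays, holds a score per probe and array, read here as the log ratio of the channels. How the authors corrected, filtered and normalized them, and the log base, is not given in the sources used here. Gene symbols came from the platform annotation and were brought up to date through gene IDs in the RefSeq table of GRCr8. Of 1561 probes with values, 1311 had an updated symbol, 5 a platform symbol only, 22 several and 223 none.

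Values were used as deposited. The arrays of a replicate were averaged, and limma 3.58.1 in R 4.3.3 estimated the mean of each of the 4 comparisons from 12 RNA pairs with lmFit and eBayes. A probe was tested where at least 2 replicates held a value, two-sided, with Benjamini-Hochberg adjustment at 0.05. The fit was tested on simulated data. Precision is limited by the number of arrays.

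Members and lists were chosen with earlier results of these data known. The text names both members, every measured gene of the kynurenine list, the lowest and highest genes of the other lists on HS, the 5 most and 2 least correlated genes, and the 3 nearest measured genes on each side. Other list genes were named after their values were seen, and the alternative limited to replicates with both orientations was also chosen after seeing the data.

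As a check of direction, the difference of the diet ratios (13 minus SS) correlated at 0.50 with the difference of the strain ratios (HS minus LS) over 1294 probes, against -0.18, 0.14 and 0.22 with 1 diet group, 1 strain group or 1 of each turned. Same-numbered deviations of different comparisons correlated from -0.62 to 0.39, and 5 of 18 exceeded 0.1. All 3 pairs of the diet comparisons in 13 and SS did (0.181, 0.127 and 0.194), so by positive correlation the numbers were taken to pair those alone. The diet comparison in SS and the strain comparison on HS hold SS RNA on HS on opposite sides of the ratio. Their same-numbered deviations correlated at -0.618, -0.475 and -0.264. Replicates of these comparisons with the same number may thus hold the same SS RNA and are not separate observations. The diet comparison in 13 and the strain comparison on HS hold strain 13 RNA on HS on the same side. For that pair the same-numbered deviations correlated at -0.063, 0.009 and -0.062, and whether it shares RNAs is not stated. Alternatives were leaving out replicates or single arrays, a replicate block, scaling, centring, single orientations, complete probes, separate fits and an unmoderated test.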

Additional observations from a re-analysis of the deposited data

Results flagged for a closer look

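On the diet arrays of strain 13, the Kmo value of 0.04 on the dye-swap array of replicate 3 stood apart from the other 4 arrays, which lay between -0.64 and -0.51. On the SS diet arrays, the Kmo value of 0.23 on the forward array of replicate 1 stood apart from the others, which lay between -0.73 and -0.54. Aadat was also above 0 in that replicate, on both arrays. The forward array of replicate 1 on LS held 726 values, fewer than any other array, where the other 5 arrays for 13 over SS on LS held at least 1099. Kmo had no value on it, and Aadat had -0.56. Dixon's test at its 95% critical value, which by its construction marks about 1 in 20 sets by chance, marked these 3 of the 12 sets of arrays examined.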

How the results depend on the processing

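With replicates left out in turn, Kmo ranged from -0.57 to -0.375 for HS over LS in 13, from -0.625 to -0.19 in SS, from -0.94 to -0.475 for 13 over SS on HS and from -0.575 to -0.38 on LS. Aadat ranged from -0.48 to -0.43, -0.357 to -0.078, -0.93 to -0.385 and -0.73 to -0.435 in the same order. The difference of the diet ratios (13 minus SS) ranged from -0.27 to 0.165 for Kmo and from -0.37 to -0.09 for Aadat, and the strain ratio on HS minus LS from -0.45 to 0.018 and from -0.38 to 0.165, with 0.074 for Aadat without replicate 2 of the LS strain comparison. The diet difference of Kmo was also above 0 on dye-swap arrays alone (0.27) and in replicates with both orientations (0.19), where Kmo in SS was -0.625 and passed. The other alternatives kept the direction of each gene in each comparison and its side of the threshold where it was tested. Kmo on HS had no value for forward arrays alone or for replicates with both orientations, as too few replicates remained.

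The numbers of probes called moved more. With replicates left out they ranged from 0 to 57 in SS, 0 to 19 on HS and 0 to 1 on LS, against 37, 81 and 0, and stayed 0 in strain 13 on diet. In SS 57 were called without replicate 1 and 0 without replicate 2 or replicate 3. On HS 0 were called without replicate 1, 12 without replicate 2 and 19 without replicate 3. Forward arrays alone called 15 (13 diet), 118 (SS diet), 127 (HS) and 70 (LS), and dye-swap arrays alone 3, 62, 411 and 51, where a dye effect does not cancel by construction. Probes with all 12 replicates called 58 in SS and 35 on LS, separate fits 0 in SS and 0 on HS, replicates with both orientations 61 in SS and 3 on LS, arrays scaled to equal spread 13 on HS and 23 on LS, and the unmoderated test 50 on HS and 26 on LS. Without the array whose title conflicts with its channel text 60 were called in SS. With the replicate number as a block 40 were called on HS, and it changed no call of Kmo or Aadat in the tested comparisons. The cause of these shifts was not tested. The difference of the diet responses called 0 probes under all 16 alternatives.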
